A study of Gallus gallus with 8 samples.

Results

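The miR-30 family of microRNAs was described in small RNA from the developing chick face. Its members were selected by name alone, as the rows numbered 30 with a letter from a to e, and this gave 10 of the 994 miRNA features of the deposited table. No measured value entered that choice, but the family was picked for description with earlier results on the difference between these 2 stages known, so the stage values below describe the members and their p-values do not allow for that choice. Ectoderm of the frontonasal ectodermal zone, which organises outgrowth of the upper jaw, was dissected from untreated Rhode Island Red chick embryos at Hamburger-Hamilton stage 22 (HH22, 72 h of incubation) and stage 18 (HH18, 48 h), with 4 libraries per stage and 2 chicks pooled in each library. HH22 lies after and HH18 before the onset of Sonic hedgehog (SHH) expression in this region. No embryo carried a mutation or received an agent, per the labels. Nothing in the labels says more of how the pools were taken, so p-values measure the spread between pools, which may be technical, and not between single embryos.

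MicroRNAs are short RNAs cut from a hairpin precursor, whose left (5p) or right (3p) arm is loaded into Argonaute and pairs with messenger RNAs through a few bases near its 5′ end, the seed. The 5p products of all miR-30 hairpins share 1 seed and are therefore expected to recognise the same kind of target site, while the 3p products carry other seeds. The family is known in mouse and human cells for restraining osteoblast differentiation and for limiting epithelial to mesenchymal transition, and in zebrafish it is known to target smoothened, the membrane transducer of the hedgehog signal. The animal genes stand in neighbouring pairs. In the GRCg7b annotation, where all 6 genes were found by symbol, MIR30A stands next to MIR30C2, MIR30B next to MIR30D, and MIR30E next to MIR30C1, with 0 genes between the members of each pair. MIR30E and MIR30C1 lie within NFYC, which encodes a subunit of the CCAAT-binding factor NF-Y. Each of the other pairs also lies within an annotated gene, named there only by a locus number.

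The 10 features were 5 products counted as 5p (miR-30a-5p, miR-30b-5p, miR-30c-5p, miR-30e-5p and miR-30d) and 5 products of the 3p arm (miR-30a-3p, miR-30b-3p, miR-30c-1-3p, miR-30c-2-3p and miR-30e-3p). The name miR-30d gives no arm, and it was counted as 5p because that is the product known under this name. miR-30c-5p can come from both miR-30c hairpins, which differ in their 3p product. Values are normalized counts, that is, reads divided by the size factor of their library. Because kallisto estimated the reads and the 5p members resemble each other in sequence, reads could have been divided between members in part by estimation. This could concern members such as miR-30a-5p, miR-30d and miR-30e-5p, and also the 3p members where they resemble each other. It was not tested for either arm.

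The HH22 libraries held 46912793 to 88471588 reads and the HH18 libraries 6276121 to 31318393, so depth and stage cannot be told apart. HH18 replicates 5 and 6 were the shallowest. Of the markers of surface epithelium (miR-200a, miR-200b, miR-429, miR-203a and miR-205a), 8 of 8 features were detected, with a summed level of 453494 to 612253 normalized counts at HH22 and 263830 to 375392 at HH18. The mesenchymal list (miR-199 and miR-214) summed to 6658 to 9415 at HH22 and 2454 to 5400 at HH18. The neural list (miR-9, miR-124a, miR-124b and miR-219a) summed to 13986 to 15491 at HH22 and 17950 to 27178 at HH18. None of the epithelial, mesenchymal and neural sums overlapped between stages, the neural one being lower at HH22 and the others higher. Of the tested features of these lists, 2 rose and 1 fell among 8 epithelial ones, 2 rose among 3 mesenchymal ones, and 1 rose and 1 fell among 4 neural ones. Beside them, 9.83% of all 356 tested features rose and 4.78% fell. Of the 79 tested features averaging 1000 normalized counts or more, 27.8% rose and 10.1% fell. With so few features per list these counts are given as they stand. The blood and endothelial list (miR-451, miR-144, miR-142, miR-223 and miR-126) summed to 306 to 2084 at HH22 and 233 to 14371 at HH18, with the highest sum in HH18 replicate 5, and limma called 0 of its 8 tested features, with 0 at an unadjusted p under 0.05. No matched feature of the 4 lists was at 0 in all libraries. The lists as set also named miR-143 and miR-145 (mesenchyme and smooth muscle) and miR-141 (epithelium), for which no feature was matched. Their part in the results below was not tested, and in such bulk tissue fewer cells of a type and less RNA per cell cannot be told apart.

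Together the 10 members held 0.385% ± 0.036 of all reads at HH22 and 0.259% ± 0.046 at HH18 (SD, n = 4 each). This share does not depend on the size factors but does depend on the library totals. It did not overlap between stages, with a lowest value of 0.339% at HH22 and a highest of 0.324% at HH18. The seed-sharing 5p members summed to 77424 ± 6590 normalized counts at HH22 and 44636 ± 6765 at HH18 (SD, n = 4 each), a difference of 0.80 on the log2 scale. The 3p members summed to 37041 ± 4626 at HH22 and 28256 ± 1552 at HH18 (SD, n = 4 each), a difference of 0.38. Both sums were higher in every HH22 library than in every HH18 library. Within each library scaling cancels in the ratio of the 5p sum to the 3p sum. This ratio was 2.10, 2.19, 2.54 and 1.66 at HH22, against 1.43, 1.46, 1.81 and 1.60 at HH18. Its stages overlapped, as HH22 replicate 4 lay below HH18 replicate 7, and it was not tested. With scaling to library totals that leave out the 5 most abundant features (the top 5 below), which moved the median of all tested features by -0.43, the differences were 0.34 for the 5p sum and -0.083 for the 3p sum. The direction of the 3p sum therefore depends on scaling.

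All 10 members entered the fit across 356 tested features. In it 3 members rose at HH22, namely miR-30a-5p, miR-30d and miR-30e-3p, and 1 fell, miR-30c-1-3p. Over all tested features 9.83% rose and 4.78% fell (limma-trend, Benjamini-Hochberg adjusted p under 0.05), and with so few members these counts are given as they stand. The same 3 members were higher in all HH22 libraries than in all HH18 libraries and the same 1 was lower, against 11.5% and 8.71% of all tested features. The members' median log2 fold change was 0.45 (5p members 0.60, 3p members 0.39), that of all tested features 0.38 and that of the 79 tested features averaging 1000 normalized counts or more 0.13. Of these 79, 27.8% rose and 10.1% fell; 7 of the 10 members lie in that range of abundance.

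**Figure D1:**
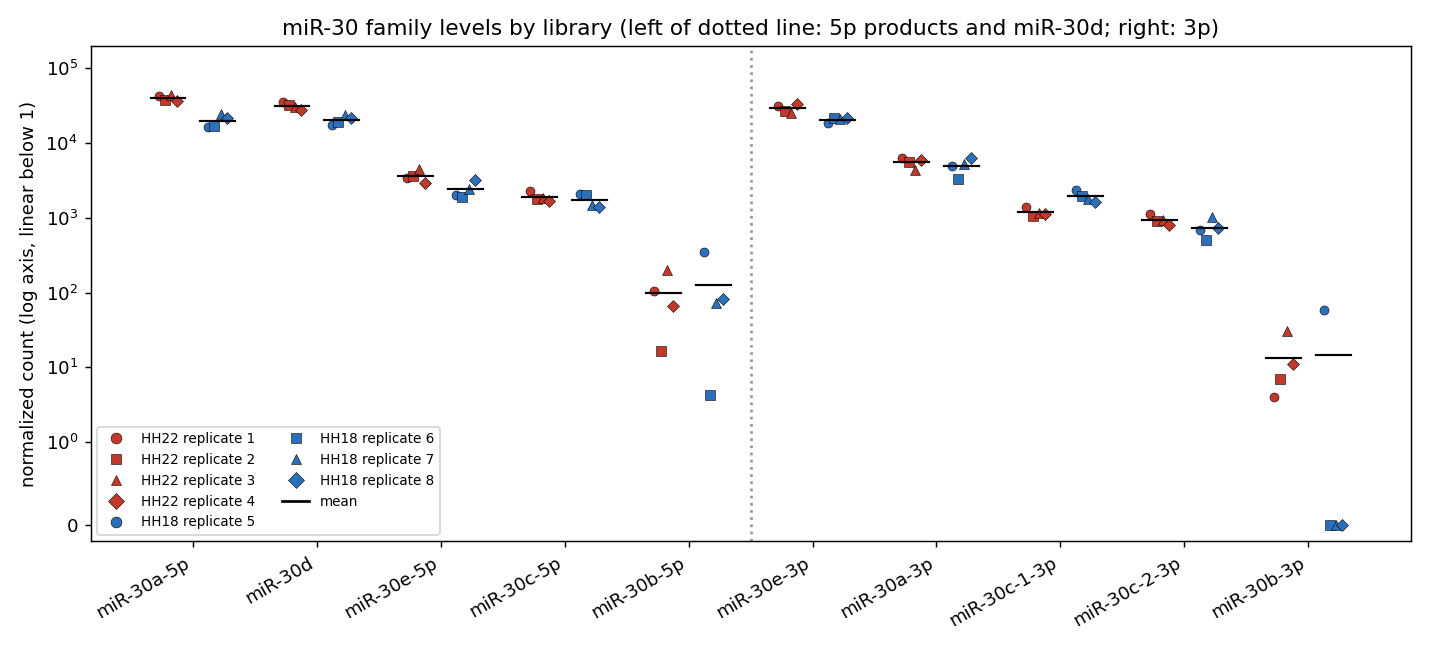
Normalized counts (log axis, linear below 1) of the 10 miR-30 members in each of the 4 HH22 (red) and 4 HH18 (blue) libraries, with 1 symbol per replicate and the stage mean as a line. miR-30a-5p, miR-30d and miR-30e-3p stand highest and are higher in all HH22 libraries, miR-30c-1-3p is lower in all of them, and miR-30b-3p had 0 reads in HH18 replicates 6, 7 and 8.

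miR-30a-5p, the most abundant member at HH22, had 42942, 37785, 43768 and 36742 normalized counts in HH22 replicates 1 to 4, against 16243, 16876, 24558 and 21959 in HH18 replicates 5 to 8. All HH22 libraries stood well above all HH18 libraries, and within HH18 the 2 deeper libraries, replicates 7 and 8, stood above the 2 shallower ones. The ratio of means was 2.02 and the log2 fold change 1.04 (SE 0.15), with a limma adjusted p of 0.000911. It passed in 20 of 20 alternatives, with log2 fold changes of 0.57 to 1.14. Leaving out HH18 replicates 5 and 6 gave 0.79, with a limma adjusted p of 0.00239.

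miR-30d, from the gene next to MIR30B, had 35482, 32245, 30625 and 27742 normalized counts at HH22, against 17435, 19084, 23729 and 21619 at HH18. The stages did not overlap, and replicates 7 and 8 were again the highest of HH18. Its ratio of means was 1.54 and its log2 fold change 0.63 (SE 0.13), with a limma adjusted p of 0.00956. It did not pass with library totals as scaling (limma adjusted p = 0.0582), nor when these left out the 5 most abundant features (0.16, adjusted p = 0.303), nor without the deepest and the 2 shallowest libraries together, an alternative added after seeing the data (0.41, adjusted p = 0.0575).

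miR-30e-5p and miR-30c-5p complete the 5p products of intermediate level. miR-30e-5p had 3408, 3601, 4453 and 2922 normalized counts at HH22, against 1992, 1911, 2453 and 3224 at HH18. HH18 replicate 8 lay above HH22 replicate 4, so the stages overlapped, and the log2 fold change of 0.60 (SE 0.20) did not pass (limma adjusted p = 0.0782). It passed without HH18 replicate 8 (log2 fold change 0.76, limma adjusted p = 0.0305) and under TMM scaling (0.67, adjusted p = 0.0396). miR-30c-5p had 2265, 1800, 1846 and 1682 at HH22, against 2057, 2028, 1472 and 1398 at HH18. Its stages overlapped in part, as HH18 replicates 7 and 8 lay below all HH22 libraries and HH22 replicate 1 above all HH18 libraries, with a log2 fold change of 0.14 (SE 0.19, limma adjusted p = 0.682) and one of -0.33 with the top 5 features left out of the library totals.

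miR-30b-5p was scarce and variable. It had 104, 16.3, 202 and 66.5 normalized counts at HH22, against 344, 4.18, 71.9 and 82.7 at HH18, where 4.18 stands for a single read in HH18 replicate 6. The highest and the lowest of the 8 values were both at HH18, and the log2 fold change of 0.30 (SE 1.27, limma adjusted p = 0.903) is smaller than its error. Although MIR30B neighbours MIR30D, miR-30d exceeded miR-30b-5p by far in every library. HH18 replicate 5, which held the highest values of miR-30b-5p and miR-30b-3p, also held the highest blood and endothelial sum, while HH18 replicate 6, with the lowest value of miR-30b-5p, had the third highest such sum, 2041.

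Among the 3p products miR-30e-3p dominated. It had 31082, 26938, 25424 and 33849 normalized counts at HH22, against 18517, 21639, 20745 and 21510 at HH18. The stages did not overlap, and the HH18 libraries lay close together, with a coefficient of variation of 13.1% at HH22 and 7.01% at HH18. The ratio of means was 1.42 and the log2 fold change 0.50 (SE 0.12), with a limma adjusted p of 0.0188. It did not pass without HH22 replicate 1 or 4 (limma adjusted p = 0.0627 and 0.0562), with library totals (0.0665), with no filter on low values (0.0597) or without the deepest and the 2 shallowest libraries (0.0792). With the top 5 features left out of the totals it came to 0.04 (limma adjusted p = 0.867).

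The 2 miR-30c hairpins differed in their 3p products. miR-30c-1-3p, whose gene neighbours MIR30E, had 1411, 1067, 1154 and 1131 normalized counts at HH22, against 2378, 1949, 1795 and 1642 at HH18. All HH22 values lay below all HH18 values, and within HH18 the 2 shallow libraries were the highest. The ratio of means was 0.614 and the log2 fold change -0.70 (SE 0.19), with a limma adjusted p of 0.0304. It passed in 12 of 20 alternatives. It did not pass without HH22 replicate 2, 3 or 4 (limma adjusted p = 0.101, 0.0802 and 0.077), without HH18 replicates 5 and 6 together (log2 fold change -0.54, adjusted p = 0.0756), without these and the deepest library (0.0559), under TMM scaling (0.0556), by voom (0.0553) or with no filter (0.0876). With the top 5 features left out of the totals it came to -1.16, at a limma adjusted p of 0.00347.

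miR-30c-2-3p, whose gene neighbours MIR30A, had 1130, 912, 924 and 812 normalized counts at HH22, against 686, 502, 1025 and 733 at HH18. HH18 replicate 7 exceeded 3 of the HH22 libraries, and the log2 fold change of 0.39 (SE 0.26) did not pass (limma adjusted p = 0.374). miR-30a-3p, from the neighbouring hairpin, had 6403, 5594, 4337 and 5943 at HH22, against 5005, 3282, 5333 and 6223 at HH18. It overlapped widely, with a log2 fold change of 0.19 (SE 0.21, limma adjusted p = 0.603). With the top 5 features left out of the totals the log2 fold changes were -0.072 for miR-30c-2-3p and -0.28 for miR-30a-3p, so the direction depends on scaling.

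miR-30b-3p was the scarcest member. It had 4.03, 6.91, 30.7 and 11.1 normalized counts at HH22 (12, 11, 54 and 17 reads), against 57.7 in HH18 replicate 5 (25 reads) and 0 reads in HH18 replicates 6, 7 and 8. A count of 0 allows up to 3 reads, which is 12.5, 2.40 and 3.82 normalized counts in these 3 libraries, for counting error only. In HH18 replicate 6, the shallowest library, the 0 reads thus allow levels like those of HH22 replicates 1, 2 and 4. The fitted log2 fold change of 2.00 (SE 1.46, limma adjusted p = 0.422) runs opposite to the ratio of means, 0.913. It rests on the pseudocount, being 2.68 with a pseudocount of 0.5, 0.74 with 5 and 0.11 on the deposited log2 values, and passed in none of these 3. Without HH18 replicate 5 all HH18 libraries stood at 0 reads, so no fold change or call is given for that setting.

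**Figure D2:**
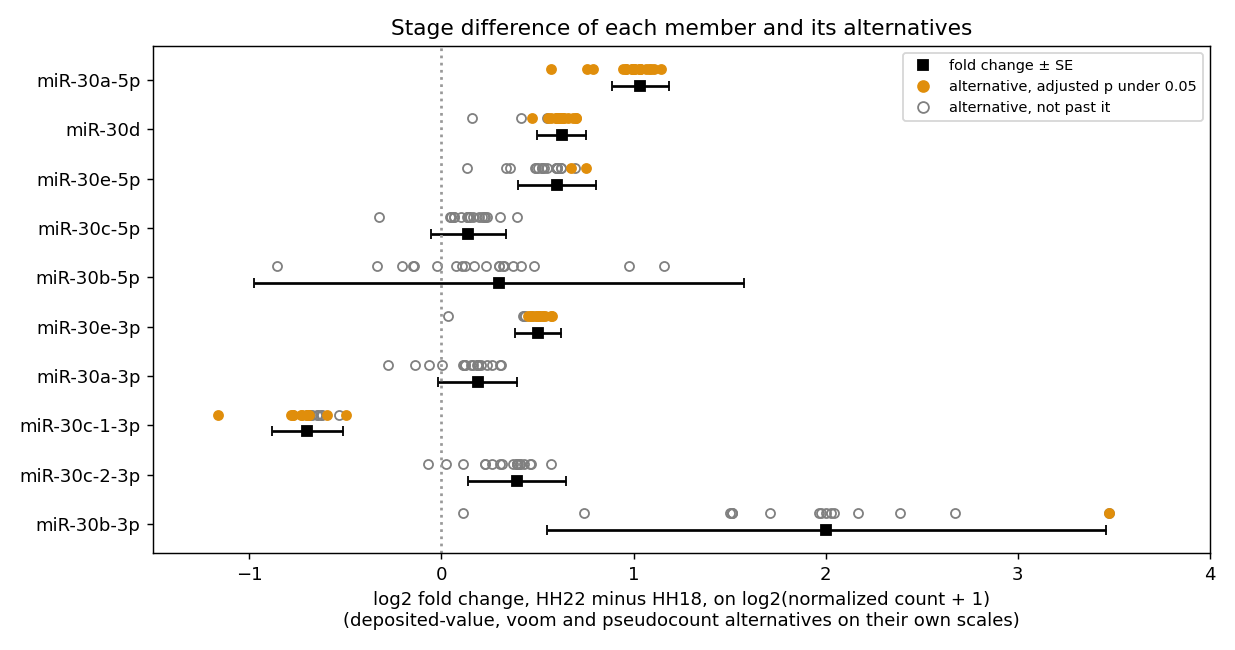
Log2 fold change of each member, HH22 minus HH18 (x axis), as a black square with its standard error, and its value under each alternative above it, filled where the limma adjusted p was under 0.05. miR-30a-5p stays past the threshold in all 20 alternatives, while miR-30d, miR-30e-3p and miR-30c-1-3p lose the call in 3, 6 and 8 of them. The values of miR-30b-3p rest on the pseudocount, also the filled one, which sets HH22 against 3 libraries at 0 reads.

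The order of the levels was partly shared between stages. Mature miRNAs are of nearly the same length, so normalized counts were compared without a length correction, and differences in how well each miRNA is captured in a library were not tested. At HH22 miR-30a-5p came first and did not overlap miR-30d, the next, while miR-30d overlapped miR-30e-3p. At HH18 the means of miR-30e-3p (20603), miR-30d (20467) and miR-30a-5p (19909) were close, and adjacent ones among these 3 overlapped. A wide gap separated these 3 from miR-30a-3p in both stages. At HH22 miR-30a-3p and miR-30e-5p overlapped, as did miR-30c-1-3p and miR-30c-2-3p. At HH18 miR-30e-5p, miR-30c-1-3p and miR-30c-5p formed a run of overlapping neighbours, and miR-30c-2-3p lay below it without overlap. In both stages miR-30b-5p and miR-30b-3p came last and overlapped each other.

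miR-30a-5p held the largest share of the 5p sum in all HH22 libraries, while at HH18 it led in replicates 7 and 8 and miR-30d led in replicates 5 and 6. The share of miR-30a-5p was 52.1% ± 1.9 at HH22 and 44.4% ± 2.3 at HH18 (SD, n = 4 each), with no overlap. miR-30d held 40.7% ± 2.2 at HH22 and 45.9% ± 1.3 at HH18, also with no overlap and lower at HH22. As miR-30a-5p and miR-30d make up most of the 5p sum, their shares are bound to each other. The level of miR-30d itself was higher at HH22 (mean 31524, against 20467 at HH18). miR-30e-5p held 4.64% ± 0.66 at HH22 and 5.35% ± 0.92 at HH18, and miR-30b-5p 0.123% ± 0.095 at HH22 and 0.306% ± 0.405 at HH18, both with overlap. miR-30c-5p held 2.45% ± 0.17 at HH22 and 4.05% ± 1.39 at HH18, a difference of -1.60 percentage points that was -0.41 without HH18 replicates 5 and 6. In the 3p sum, miR-30e-3p held 79.1% ± 1.6 at HH22 and 72.9% ± 4.2 at HH18, and its stages overlapped. The share of miR-30c-1-3p was 3.24% ± 0.42 at HH22 and 6.93% ± 1.5 at HH18 (SD, n = 4 each), with no overlap. Shares do not depend on size factors, and they were not tested since the members and the stages were known when the family was picked.

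**Figure D3:**
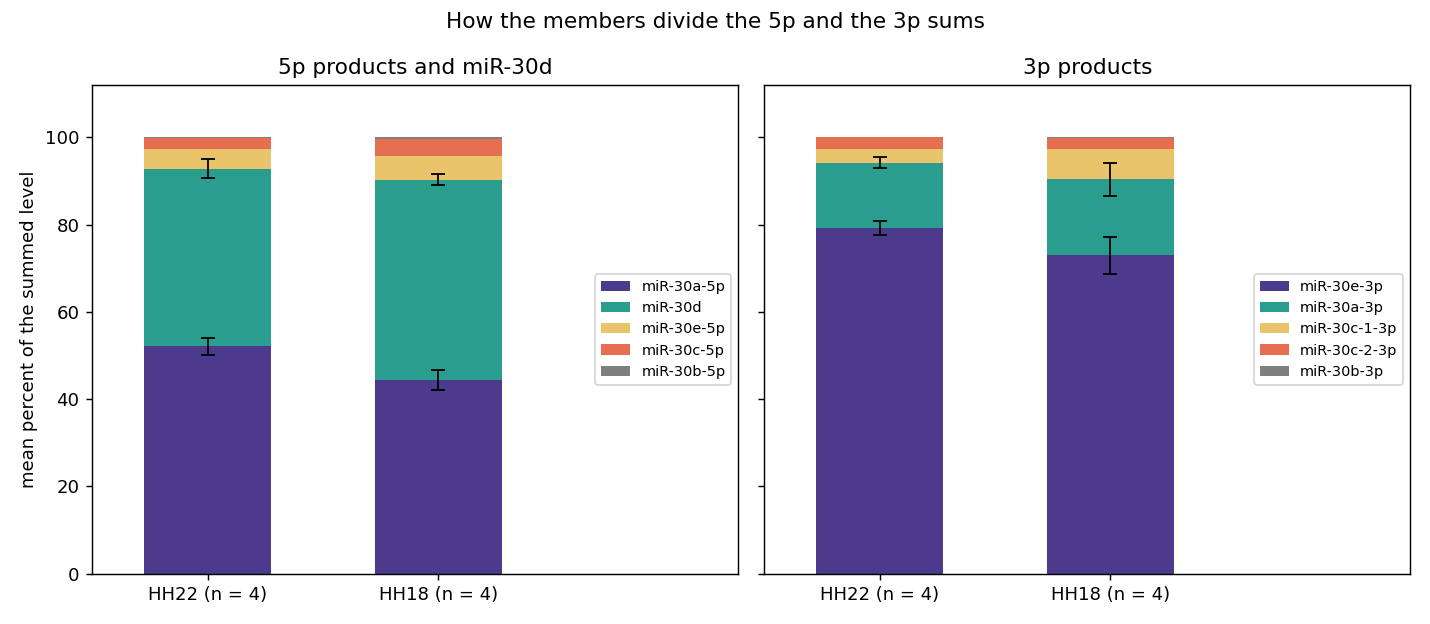
Mean percent of the summed 5p level (left) and of the summed 3p level (right) held by each member at HH22 and HH18 (n = 4 each), stacked, with error bars of 1 SD of the segment that ends there, drawn for members over 5% in both stages. miR-30a-5p takes 52.1% of the 5p sum at HH22 and 44.4% at HH18, and miR-30e-3p takes 79.1% of the 3p sum at HH22 and 72.9% at HH18.

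Arms of the same hairpin were compared within each library, where scaling cancels. The arm with more counts differed between hairpins: it was 5p for miR-30a and 3p for miR-30e, and miR-30c had less 5p than 3p product in every library. Differences in how well each arm is captured, or in how reads were divided by estimation, do not cancel and were not tested. The ratio of 5p to 3p for miR-30a was 6.71, 6.75, 10.1 and 6.18 at HH22, against 3.25, 5.14, 4.61 and 3.53 at HH18. All HH22 ratios were above all HH18 ratios. For miR-30e the 3p product exceeded the 5p product 9.12, 7.48, 5.71 and 11.6 times at HH22, against 9.29, 11.3, 8.46 and 6.67 times at HH18. These ranges overlapped almost fully. The log2 fold changes between stages were 0.60 (SE 0.20) for miR-30e-5p and 0.50 (SE 0.12) for miR-30e-3p. The ratio of miR-30c-5p to the sum of both miR-30c 3p products was 0.891, 0.910, 0.888 and 0.866 at HH22, against 0.671, 0.828, 0.522 and 0.588 at HH18. It varied little at HH22 (coefficient of variation 2.04% at HH22 and 20.2% at HH18), and all HH22 values lay above all HH18 values.

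A fit of the log2 arm ratio over 75 hairpins with both arms tested called 0 of the 4 miR-30 hairpins changed, and 0% of all hairpins (limma, Benjamini-Hochberg). At an unadjusted p under 0.05 it held 8 of the 75 hairpins, among them miR-30a. A fit with a trend of the spread on the mean also called 0, with 9 at an unadjusted p under 0.05. No miR-30 hairpin was called in 15 alternatives. The difference of log2 ratio, HH22 minus HH18, was 0.85 for miR-30a (SE 0.34, limma adjusted p = 0.416), 0.47 for miR-30c (SE 0.30, adjusted p = 0.485) and 0.10 for miR-30e (SE 0.36, adjusted p = 0.909). For miR-30a the limma adjusted p ranged from 0.240 to 0.574 over the 15 alternatives. The ratio did not overlap between stages in 13.3% of all 75 hairpins, and in 2 of the 4 miR-30 hairpins, miR-30a and miR-30c. For miR-30b, with 3 libraries at 0 reads in the 3p arm, the difference of -1.71 (SE 1.2, limma adjusted p = 0.485) rests on the pseudocount. Against miR-30c-1-3p alone the miR-30c difference was 0.84, and against miR-30c-2-3p alone -0.25, so its sign depends on the 3p product used.

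**Figure D4:**
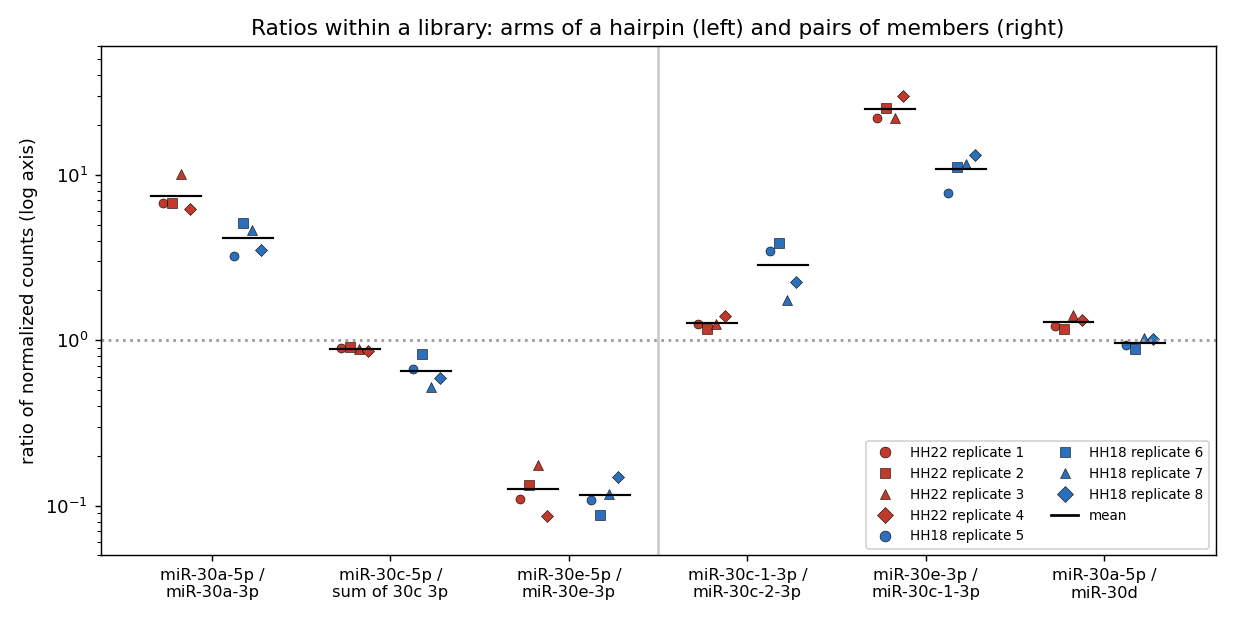
Ratios of normalized counts within each library (log axis, dotted line at 1) for the arms of miR-30a, miR-30c and miR-30e (left) and for 3 pairs of members (right), in 4 HH22 (red) and 4 HH18 (blue) libraries with the mean as a line. The stages overlap for the arms of miR-30e, while the other ratios shown do not overlap, and miR-30c-1-3p over miR-30c-2-3p is lower in all HH22 libraries.

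Members from neighbouring or related hairpins were also set against each other within each library. miR-30c-1-3p exceeded miR-30c-2-3p 1.25, 1.17, 1.25 and 1.39 times at HH22, against 3.47, 3.88, 1.75 and 2.24 times at HH18. All HH22 ratios were lower, and within HH18 the shallow replicates 5 and 6 lay farthest from HH22. Between the products of the neighbours MIR30E and MIR30C1, miR-30e-3p exceeded miR-30c-1-3p 22.02, 25.3, 22.02 and 29.9 times at HH22, against 7.79, 11.1, 11.6 and 13.1 times at HH18. For the other pair with both 3p products measured, miR-30a-3p stood at 5.67, 6.14, 4.70 and 7.32 times miR-30c-2-3p at HH22, against 7.30, 6.54, 5.20 and 8.49 times at HH18, with wide overlap. miR-30a-5p and miR-30d, from different gene pairs, stood at a ratio of 1.28 ± 0.12 at HH22 and 0.967 ± 0.071 at HH18 (SD, n = 4 each), without overlap. The coefficient of variation of that ratio was 9.08% at HH22, where miR-30a-5p had 8.83% and miR-30d 10.2%, and 7.33% at HH18, where miR-30a-5p had 20.2% and miR-30d 13.6%. These pairs were picked with their values in view, so no test was made.

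Outside the family, the features most like the summed 5p level over the 8 libraries were miR-181a-5p (Pearson r = 0.991, Spearman rho = 0.976), miR-221-3p (r = 0.987, rho = 0.952), miR-101-3p (r = 0.969, rho = 0.857) and let-7a-5p with let-7j-5p (r = 0.958, rho = 0.738), taken from 171 features averaging 100 normalized counts or more. The values of the 2 let-7 features were the same in every library and are 1 measurement. The correlations were computed on log2 values, include the difference between the stages and share the libraries' size factors, so they describe likeness of pattern and carry no p. Without the 2 libraries farthest from the median of the 5p sum, r was 0.976, 0.971, 0.929 and 0.905 for these patterns. Of the 171 features 14 reached an r of 0.9, and the median r of all 171 was 0.15. miR-181a-5p, known for its part in T cell development in mouse, had 417033, 386655, 350299 and 318624 normalized counts at HH22, against 161641, 168487, 237550 and 208141 at HH18. Its stages did not overlap, and HH18 replicates 7 and 8 were nearest to HH22. As it was chosen for likeness to the 5p sum over the same libraries, this is no separate observation.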

How the data were processed

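RNA was isolated with miRNeasy kits and sequenced as TruSeq small RNA libraries, per the labels' protocols. Tools listed in the submitters' processing notes are bcl2fastq, kallisto 0.44.0 and cutadapt 1.8.1. Reference sequences and genome build are not given in these sources. The deposited values are log2 values whose lowest value, 8.52, is shared by every library. When a closed-form variance-stabilizing transformation was inverted, 100% of the values above it were whole multiples of 1 step per library (tolerance 0.001), taken as 1 read. These steps matched median-of-ratios size factors from the 200 features present in every library.

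The filter kept features with 1 or more normalized counts in 4 or more libraries. Stage differences (HH22 minus HH18) were fitted two-sided on log2 values with a pseudocount of 1, using limma 3.58.1 in R 4.3.3. Log2 arm ratios used the same filter and pseudocount. Tables and plots were made with matplotlib 3.10.9, scipy 1.17.1, pandas 2.3.3 and numpy 2.4.6 under Python 3.11.15. The procedures were tested on simulated counts. Alternatives were TMM and library-total scaling, pseudocounts of 0.5 and 5, other filters, voom, the deposited values, thinning to equal depth and leaving out libraries. All members and the 5 features most like the 5p sum were named by rule. Members and lists were chosen with earlier results of these data known. No paired analysis was possible because the stages share no replicate number. Floors cover counting error only.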

Additional observations from a re-analysis of the deposited data

Results flagged for a closer look

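Among the 20 groups of 4 values (10 members in 2 stages), Dixon's ratio flagged 1, and for values without ties chance gives about 1 in 20. It was miR-30b-3p at HH18, with 57.7 normalized counts (25 reads) in replicate 5 and 0 reads in replicates 6, 7 and 8. With these 3 tied at 0, the ratio is 1 for any count above 0 in replicate 5. The flag thus follows from the 0 reads and does not measure how far replicate 5 lies from the others. HH18 replicate 5 also held 344 normalized counts of miR-30b-5p, against 4.18, 71.9 and 82.7 in the other HH18 libraries, and a blood and endothelial sum of 14371, against 2041, 233 and 364. Whether these go together was not tested.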

How the results depend on the processing

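The reported count of 3 members higher at HH22 was 1 with library totals, 1 with totals leaving out the top 5 features and 1 without the deepest and the 2 shallowest libraries. It was 2 with no filter and without HH22 replicate 1 or 4, and 4 under TMM scaling and without HH18 replicate 8. Without HH18 replicate 5 the count took in miR-30b-3p, at 0 reads in all HH18 libraries left, so it is not given. The reported count of 1 lower member was 0 without the deepest and the 2 shallowest libraries. It was also 0 under TMM scaling, by voom, with no filter and without HH18 replicates 5 and 6, and ranged from 0 to 1 when single replicates were left out. The cause of these changes was not tested. Thinned to 6276121 reads per library, 3 members were higher and 1 lower, beside 28 and 19 of 309 tested features. The log2 fold changes were then 0.99 for miR-30a-5p, 0.60 for miR-30d, 0.46 for miR-30e-3p and -0.72 for miR-30c-1-3p. The depth at which the libraries were sequenced still went with stage. Over all features, 35 rose and 17 fell of 356 tested. With library totals 24 rose and 17 fell of 355, and with totals leaving out the top 5, 24 and 47 of 355. Under TMM scaling 38 rose and 14 fell of 356, by voom 28 and 19 of 356, and with no filter 15 and 9 of 651. Without HH18 replicates 5 and 6, 34 rose and 19 fell of 342. Without the deepest and the 2 shallowest libraries, 19 rose and 13 fell of 298. With single replicates left out, 17 to 48 rose and 9 to 19 fell, of 322 to 349. The difference of the 5p sum was 0.80, 0.34 with those reduced totals and 0.62 without HH18 replicates 5 and 6; that of the 3p sum was 0.38 and -0.083 with those totals, which moved the median of all tested features by -0.43. With those totals the sign turned for miR-30a-3p (-0.28), miR-30b-5p (-0.15), miR-30c-2-3p (-0.072) and miR-30c-5p (-0.33), none of them called. Without HH18 replicates 5 and 6 it turned for miR-30a-3p (-0.064), miR-30b-5p (-0.14) and the miR-30e arm ratio (-0.13), and without the deepest and the 2 shallowest libraries for miR-30a-3p (-0.14) and miR-30b-5p (-0.34). miR-30b-5p also turned on the deposited log2 values (-0.023) and ranged from -0.86 to 1.16 with single replicates left out, and the miR-30e arm ratio ranged from -0.075 to 0.27. The miR-30c arm ratio turned against miR-30c-2-3p alone (-0.25). That comparison, the one against miR-30c-1-3p alone and the arm fit with a trend were added after seeing the data. So were the setting without the deepest and the 2 shallowest libraries and the 5p sum without miR-30d, with a difference of 0.94. miR-30b-3p was 2.00, and 2.68 and 0.74 with pseudocounts of 0.5 and 5 and 0.11 on the deposited values. Without HH18 replicate 5 its HH18 libraries were all at 0 reads, so that fold rests on the pseudocount and is not given. Thinned to equal depth, with a minimum of 10 or without the deepest and the 2 shallowest libraries it did not pass the filter. Depth limits miR-30b-5p and miR-30b-3p most, with as few as 1 and 0 reads at HH18.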
